A study of Mus musculus with 25 samples.

Results

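The 8 genes described here make, break down or read out cyclic AMP (cAMP), the small messenger that holds a mouse oocyte in meiotic prophase. They are the receptor Gpr3, the adenylyl cyclases Adcy3 and Adcy9, the phosphodiesterase Pde3a, the catalytic subunits Prkaca and Prkacb of protein kinase A (PKA), and its regulatory subunits Prkar1a and Prkar2b. They were given by symbol and matched by Ensembl identifier, and all 8 were listed in both deposited tables, of 25158 genes in oocytes and 34228 genes in embryos. RNA from C57BL/6 mouse oocytes and embryos was sequenced after Smart-seq2, which copies whole transcripts into cDNA and amplifies them, and so works on a few cells. The 25 libraries form 6 groups: MII oocytes with VCD (n = 5) or PBS (n = 4), 2-cell embryos with VCD (n = 4) or PBS (n = 4), and morulae with VCD (n = 4) or PBS (n = 4). MII oocytes, which wait at metaphase II for the sperm, had matured in vitro in M16 medium for 16 h. 2-cell embryos and morulae, compacting embryos that precede the blastocyst, came from in vitro fertilization of 6 h. They were cultured in G1 medium, with a move to G2 medium before the morula forms. VCD is the small molecule under test as the labels abbreviate it, neither its full name nor its dose being stated, and PBS is the buffered saline of the controls. The labels do not say how many oocytes or embryos went into a library, nor whether replicates are separate cultures or animals. The p-values therefore reflect the spread among libraries, which may be technical.

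In the fully grown oocyte GPR3 is constitutively active and drives adenylyl cyclase through the stimulatory G protein, and the cAMP it makes keeps PKA active. PKA in turn holds the kinase CDK1 inactive, through WEE2 and against the CDC25 phosphatases, so that meiosis does not resume. Surrounding cumulus cells send cyclic GMP through gap junctions into the oocyte, where it blocks PDE3A; when the ovulatory signal lowers cyclic GMP, PDE3A destroys cAMP and meiosis resumes. All libraries here were taken after that step, so what was measured is the transcripts of the arrest machinery in oocytes that have left the arrest and in the embryos made from such oocytes.

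Values are FPKM, fragments scaled by transcript length and by the fragments of the library, as the authors deposited them. The low values implied 16382968 to 20054951 counted fragments per library in oocytes, 15075907 to 20787428 in 2-cell embryos and 15304092 to 20998257 in morulae. Summed, the oocyte, 2-cell and morula marker lists were each highest at their own stage. Gdf9 led the oocyte list in both oocyte groups and Zfp352 the 2-cell list in both 2-cell groups. Krt18 led the morula list in both morula groups. Not every marker followed its label. The morula marker Cdh1 had a median of 68.7 FPKM in oocytes and at most 33.6 FPKM in morulae. Gata3, also a morula marker, had medians of 18.02 and 11.9 FPKM. The other morula markers with oocyte values were higher in morulae. In 2-cell embryos the oocyte list still summed to 2970 to 3815 FPKM, above the 2-cell list at 857 to 1334 FPKM. Zp3, an oocyte marker, held 22.8 to 43.1 FPKM in morulae. FPKM is a share of a library's RNA, so less transcript per cell and fewer cells holding it cannot be told apart.

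Between the 2-cell stage and the morula 4 of the 8 genes fell steeply: Gpr3, Pde3a, Prkaca and Prkar2b were 15.7- to 208-fold lower in morulae by their mean FPKM. Adcy9 and Prkacb were higher in morulae, by 2.94- to 5.30-fold. In VCD embryos 4 of the 7 members tested fell, 2 rose and Prkar1a did not pass, where 43.9% of 12355 tested genes fell and 41% rose. In PBS embryos 4 of 7 fell and 3 rose, where 45% of 12517 tested genes fell and 42.7% rose. With 84.8% of all genes called in VCD embryos and 87.7% in PBS embryos, a call in this comparison is usual; with no filter on low values the shares were 46.6% and 49.4%. The members' median log2 fold change was -1.92 with VCD and -1.84 with PBS, beside -0.08 over all genes tested in each. With 7 members this median is the value of Pde3a alone. Pde3a, Prkaca and Prkar2b were too low to be tested within morulae and entered through the 2-cell libraries. Prkacb was too low within 2-cell embryos and entered through the morulae. The members were also chosen with earlier results known, so the median does not measure a shift of the set. The libraries of both stages did not overlap for 6 of 7 members with VCD, where this held for 79.2% of genes, and for 7 of 7 with PBS, where it held for 83.4%. Adcy3, the eighth member, stayed under 1 FPKM and was not tested. The tests are limma on log2(FPKM + 1) over all genes that reached 1 FPKM in 4 libraries of the comparison, with Benjamini-Hochberg adjustment and a threshold of 0.05; fold changes and standard errors (SE) on this scale understate the change of low genes.

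No member passed the test between VCD and PBS at any of the 3 stages. In MII oocytes 0 of 7 tested members passed, where 0.0115% of 8715 tested genes did. In 2-cell embryos 0 of 6 passed, where 0% of 11369 did, and in morulae 0 of 4 passed, where 0.01% of 9959 did. With limma none of the members reached an unadjusted p below 0.05 in any of the 3 stages, and voom on the recovered reads called 0 as well. VCD and PBS libraries overlapped for every tested member; they did not for 1.04% of genes in oocytes, 2.16% in 2-cell embryos and 2.04% in morulae. Over all genes 245 had an unadjusted p below 0.05 in oocytes (2.81%), 391 in 2-cell embryos (3.44%) and 311 in morulae (3.12%), and voom called 0 in each. A count of 0 among 4 to 7 members is near that background.

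**Figure D1:**
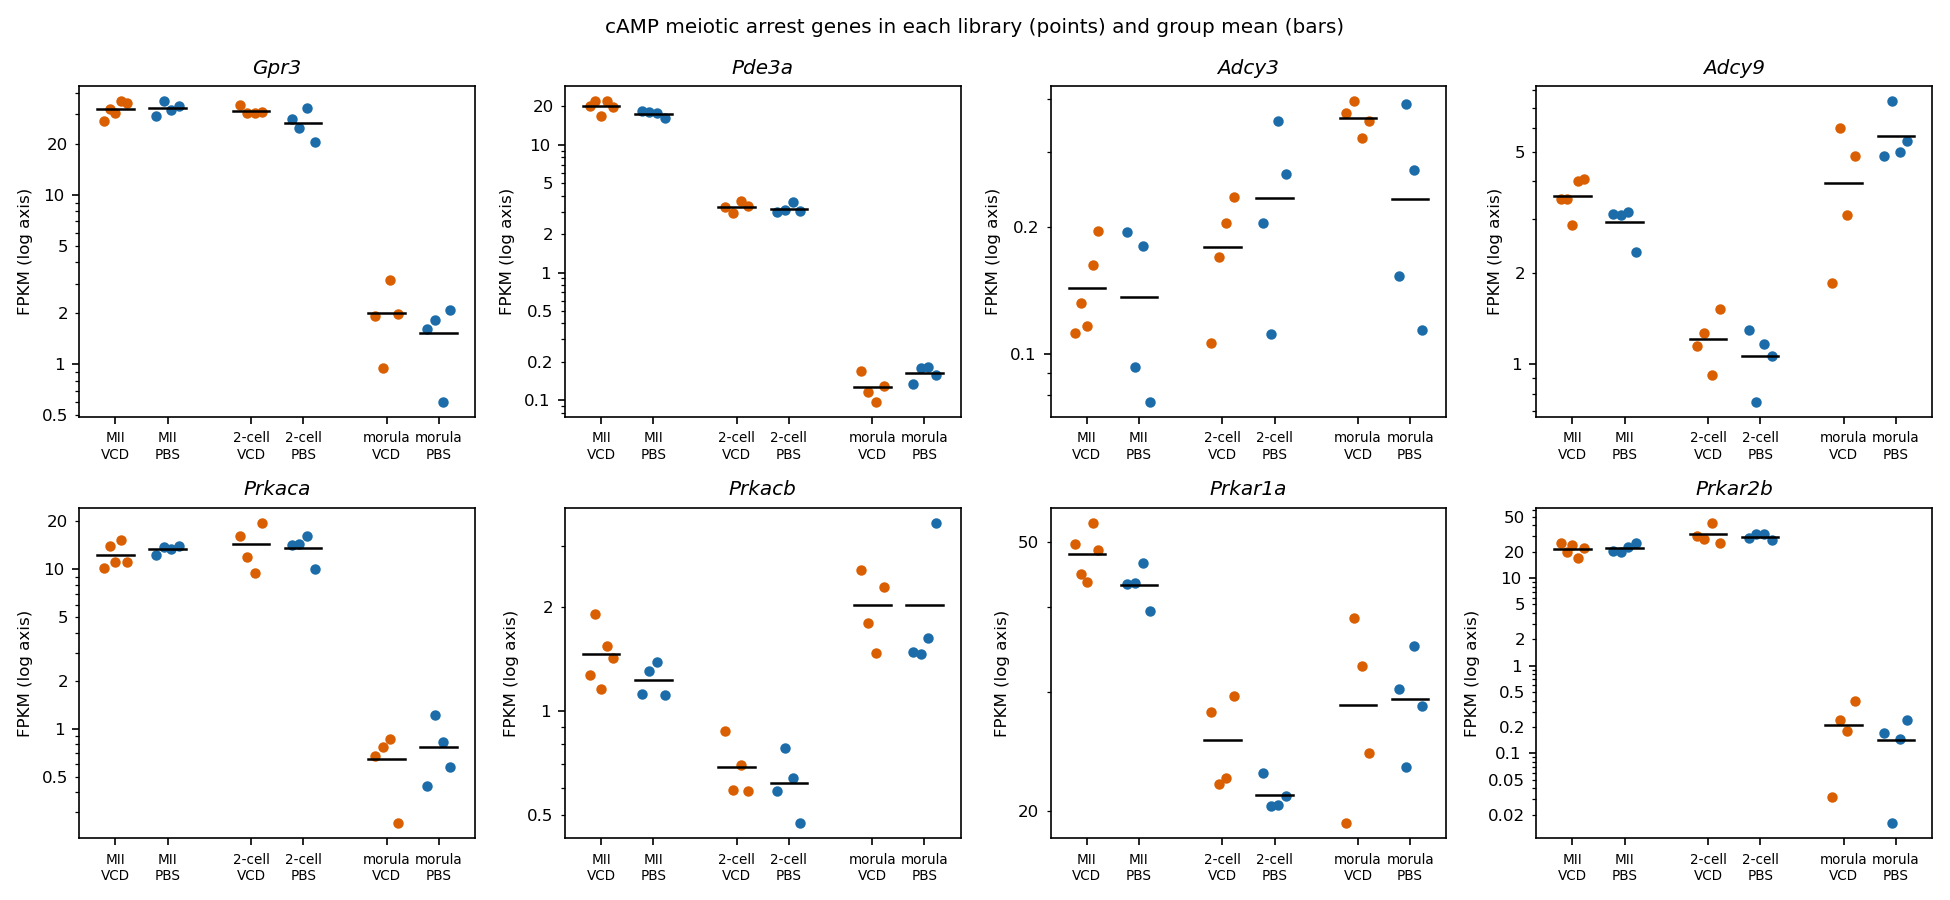
Level of each of the 8 genes in FPKM (log axis, a scale of its own in each panel) in every library, as points in replicate order, with the group mean as a bar; VCD groups are orange and PBS groups blue. Gpr3, Pde3a, Prkaca and Prkar2b sit far lower in all 8 morula libraries than in the oocytes and 2-cell embryos, Adcy9 and Prkacb dip at the 2-cell stage, and the VCD and PBS points overlap in every panel and stage.

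The promoters are shown because genes downstream of PKA often carry the cAMP response element, TGACGTCA, which binds CREB family proteins. RefSeq promoter windows (build GRCm38.p6, 250 bases before to 50 after the annotated start, read on the gene's strand) were given for 7 of the 8 members; Pde3a was not among them. Capitals mark the full element TGACGTCA or the shorter core TGACG on either strand (CGTCA when read from the other strand); each full element holds 2 overlapping cores. The windows are those of Gpr3 and Prkar2b, which fell, and of Adcy9 and Prkar1a, which did not:
Gpr3, chr4:133212487-133212786, minus strand: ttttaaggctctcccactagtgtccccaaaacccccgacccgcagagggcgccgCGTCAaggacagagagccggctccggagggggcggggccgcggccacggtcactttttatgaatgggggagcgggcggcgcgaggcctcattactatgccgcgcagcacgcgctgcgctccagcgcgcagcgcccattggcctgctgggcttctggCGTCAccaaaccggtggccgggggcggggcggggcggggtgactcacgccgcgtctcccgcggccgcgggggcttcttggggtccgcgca
Prkar2b, chr12:32061228-32061527, minus strand: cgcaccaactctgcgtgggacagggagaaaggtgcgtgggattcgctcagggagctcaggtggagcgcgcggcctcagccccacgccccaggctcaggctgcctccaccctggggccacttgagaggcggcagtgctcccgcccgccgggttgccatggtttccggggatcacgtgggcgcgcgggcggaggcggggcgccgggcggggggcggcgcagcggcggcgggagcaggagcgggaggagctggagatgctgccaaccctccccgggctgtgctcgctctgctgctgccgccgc
Adcy9, chr16:4420449-4420748, minus strand: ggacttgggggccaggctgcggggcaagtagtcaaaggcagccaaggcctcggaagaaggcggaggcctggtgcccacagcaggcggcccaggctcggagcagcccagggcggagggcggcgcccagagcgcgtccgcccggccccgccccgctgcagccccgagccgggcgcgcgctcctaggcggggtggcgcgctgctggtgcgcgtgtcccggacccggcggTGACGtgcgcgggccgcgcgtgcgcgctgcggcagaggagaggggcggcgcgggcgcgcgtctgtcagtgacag
Prkar1a, chr11:109650699-109650998, plus strand: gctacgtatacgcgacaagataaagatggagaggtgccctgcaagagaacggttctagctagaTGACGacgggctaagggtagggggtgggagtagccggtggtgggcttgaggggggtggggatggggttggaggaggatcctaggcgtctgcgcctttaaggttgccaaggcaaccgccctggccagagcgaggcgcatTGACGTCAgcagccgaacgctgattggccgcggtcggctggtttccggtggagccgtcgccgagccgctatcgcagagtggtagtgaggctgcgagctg
The full element was found in 1.79% of 32851 mouse promoter windows. Among the members Prkar1a held it, at position -49 from the start shown, which is 1 of its 6 (the same copy lies in the window of an overlapping start). The core, within a full element or not, was found in 20.8% of all windows. It lies at positions -196 and -40 from the start of Gpr3 and at -24 from that of Adcy9, and also in a window of Prkaca and of Prkacb. Neither Adcy3 nor Prkar2b had the core in the windows given. The shares are per window, whereas a member had from 1 window (Gpr3) to 6 (Prkar1a), and more windows give more chances of a match. The windows shown were 62.7% to 78.3% G or C, beside a median of 52.7% over all windows, and the shares are not matched for this. A match describes these letters only and marks no site of binding.

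Gpr3 (chromosome 4, 133209340 to 133212536 in GRCm38, minus strand), the receptor at the head of the pathway, had overlapping levels in oocytes and 2-cell embryos and a far lower level in morulae. It stood at 27.3, 32.4, 30.5, 35.9 and 35.2 FPKM in MII oocytes with VCD, against 29.2, 35.8, 32.01 and 33.8 FPKM in those with PBS. In 2-cell embryos the values were 33.97, 30.5, 30.4 and 30.99 FPKM with VCD, against 28.2, 24.95, 32.6 and 20.6 FPKM with PBS. In morulae they were 1.93, 0.950, 3.15 and 1.98 FPKM with VCD, against 1.62, 1.83, 0.601 and 2.10 FPKM with PBS. Oocyte and 2-cell libraries overlap under either agent, every morula lies below every earlier library, and VCD and PBS overlap at each stage. After median-of-ratios scaling of all 25 libraries the mean of 2-cell embryos was 0.685 of that of oocytes with VCD and 0.558 with PBS, and the libraries no longer overlapped. Gpr3 fell in morulae against 2-cell embryos by a log2 fold change of -3.48 with VCD (SE 0.22, adjusted p = 8.03e-08) and -3.47 with PBS (SE 0.22, adjusted p = 8.28e-08). Mean levels were 15.7-fold lower in VCD morulae and 17.3-fold lower in PBS morulae. With VCD the 2-cell mean was 31.5 ± 1.68 FPKM, against 26.6 ± 5.09 FPKM with PBS (SD, n = 4 each), a log2 fold change of 0.25 with a 95% interval of -0.06 to 0.57 that did not pass (limma, adjusted p = 0.999). The oocyte interval was narrower, from -0.24 to 0.19. Of the exon bases of Gpr3, 7.46% also belong to Cd164l2 on the other strand, and Smart-seq2 does not mark strand.

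Adcy9 (chromosome 16, 4287529 to 4420498, minus strand), a membrane-bound cyclase that makes cAMP, had its lowest mean in 2-cell embryos and, as deposited, its highest in morulae. MII oocytes held 3.50, 3.51, 2.88, 4.03 and 4.06 FPKM with VCD, against 3.13, 3.10, 3.18 and 2.34 FPKM with PBS. Among 2-cell embryos there were 1.15, 1.27, 0.919 and 1.52 FPKM with VCD, against 1.30, 0.753, 1.16 and 1.06 FPKM with PBS. Morulae had 1.85, 6.01, 3.09 and 4.87 FPKM with VCD, against 4.87, 7.36, 4.99 and 5.43 FPKM with PBS. All 8 morulae lie above all 8 2-cell embryos, and 1 VCD morula, at 1.85 FPKM, lies below the other morulae. As deposited, PBS morulae also lie above the PBS oocytes, whereas VCD morulae and VCD oocytes overlap. With all 25 libraries scaled by median of ratios, morulae and oocytes overlap under either agent, and the VCD mean was lower in morulae, at 3.22 against 4.56 in oocytes. Adcy9 rose in morulae by a log2 fold change of 1.09 with VCD (SE 0.26, adjusted p = 0.00253) and 1.68 with PBS (SE 0.16, adjusted p = 1.57e-06), a mean level 3.26- and 5.30-fold that of 2-cell embryos. VCD morulae averaged 3.96 ± 1.85 FPKM, against 5.66 ± 1.16 FPKM in PBS morulae (SD, n = 4 each), a log2 fold change of -0.49 with a 95% interval of -1.12 to 0.14 (limma, adjusted p = 0.99997). In oocytes the estimate had the other sign, 0.22 with an interval of -0.03 to 0.47 (limma, adjusted p = 0.999). The difference between its VCD effect in morulae and that in 2-cell embryos was -0.59 (SE 0.32) and did not pass either (limma interaction, adjusted p = 0.999).

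Adcy3 (chromosome 12, 4133103 to 4213525, plus strand), the other cyclase named, was barely detected. MII oocytes had 0.112, 0.132, 0.116, 0.162 and 0.195 FPKM with VCD, against 0.194, 0.0929, 0.180 and 0.0770 FPKM with PBS. The 2-cell values were 0.106, 0.169, 0.204 and 0.235 FPKM with VCD, against 0.204, 0.112, 0.355 and 0.266 FPKM with PBS, and those of morulae were 0.371, 0.396, 0.324 and 0.356 FPKM with VCD, against 0.152, 0.390, 0.271 and 0.114 FPKM with PBS. These are 9 to 42 fragments a library, and the 3 stages overlap with PBS. VCD morulae lie above all VCD 2-cell embryos; with the filter on low values removed that difference had an adjusted p of 0.0416 with VCD and 0.972 with PBS (limma). Of the exon bases of Adcy3, 22.1% also belong to Cenpo on the other strand, so its counts are uncertain.

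Pde3a (chromosome 6, 141249269 to 141507448, plus strand), the enzyme whose release ends the arrest, was lower at each later stage. It was at 20.2, 22.03, 16.7, 21.9 and 19.7 FPKM in MII oocytes with VCD, against 18.2, 18.2, 17.7 and 16.1 FPKM with PBS. 2-cell embryos held 3.29, 2.93, 3.63 and 3.30 FPKM with VCD, against 2.98, 3.10, 3.57 and 3.02 FPKM with PBS. In morulae 0.168, 0.117, 0.0975 and 0.130 FPKM remained with VCD, against 0.135, 0.178, 0.183 and 0.159 FPKM with PBS. The 3 stages do not overlap, and within each stage the agents do. Mean levels were 6.11-fold lower in 2-cell embryos than in oocytes with VCD and 5.54-fold lower with PBS. These oocyte and embryo values come from separate tables and were not tested; with all 25 libraries scaled by median of ratios the same figures were 8.71 and 8.04. In morulae Pde3a fell against 2-cell embryos by a log2 fold change of -1.92 with VCD (SE 0.12, adjusted p = 6.26e-08) and -1.84 with PBS (SE 0.10, adjusted p = 1.99e-08), 25.7- and 19.4-fold lower in mean FPKM. The oocyte mean was 20.1 ± 2.16 FPKM with VCD (n = 5), against 17.6 ± 1.01 FPKM with PBS (n = 4; SD), a log2 fold change of 0.18 with a 95% interval of -0.03 to 0.39 (limma, adjusted p = 0.999). Its close relative Pde3b, which also breaks down cAMP, had overlapping oocyte and 2-cell libraries as deposited: it averaged 12.9 ± 1.02 FPKM in VCD oocytes and 12.6 ± 1.39 in PBS oocytes, and 11.02 ± 0.83 FPKM in VCD 2-cell embryos and 11.1 ± 0.51 in PBS 2-cell embryos (SD). Scaled with all 25 libraries, every 2-cell library of Pde3b lies below every oocyte of its agent, at means of 9.85 against 16.601 with VCD and 10.1 against 16.605 with PBS. Pde3a made up 55.5% to 63.97% of the summed FPKM of both genes in oocytes and 21.04% to 24.6% in 2-cell embryos.

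Between the catalytic subunits Prkaca and Prkacb, which carry the kinase activity of PKA, Prkaca predominated in oocytes and 2-cell embryos and Prkacb in morulae. The related catalytic kinase Prkx is left out of this comparison. In morulae it averaged 4.88 FPKM with VCD and 5.07 FPKM with PBS, above Prkacb at 2.02 FPKM with either agent. Prkaca (chromosome 8, 83972993 to 83996443, plus strand) had 10.2, 13.9, 11.04, 15.2 and 11.1 FPKM in MII oocytes with VCD, against 12.3, 13.7, 13.5 and 14.02 FPKM with PBS. It had 16.2, 12.01, 9.47 and 19.6 FPKM in 2-cell embryos with VCD, against 14.2, 14.3, 16.1 and 9.99 FPKM with PBS. Morula values were 0.675, 0.771, 0.867 and 0.255 FPKM with VCD, against 0.440, 1.21, 0.830 and 0.572 FPKM with PBS. Oocytes and 2-cell embryos overlap (with PBS not after median-of-ratios scaling), morulae lie below both, and the 2-cell VCD libraries reach both below and above the oocytes. Prkaca fell in morulae by a log2 fold change of -3.19 with VCD (SE 0.24, adjusted p = 2.8e-07) and -3.06 with PBS (SE 0.19, adjusted p = 5.27e-08), 22.3- and 17.9-fold lower in mean FPKM.

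Prkacb (chromosome 3, 146729574 to 146812990, minus strand) was higher in morulae than in 2-cell embryos, and below Prkaca in oocytes and 2-cell embryos. MII oocytes carried 1.27, 1.90, 1.16, 1.54 and 1.42 FPKM with VCD, against 1.12, 1.30, 1.38 and 1.11 FPKM with PBS. The 2-cell libraries had 0.877, 0.592, 0.696 and 0.585 FPKM with VCD, against 0.588, 0.782, 0.639 and 0.473 FPKM with PBS. Morulae had 2.56, 1.79, 1.47 and 2.28 FPKM with VCD, against 1.48, 1.46, 1.63 and 3.51 FPKM with PBS. Every 2-cell library lies below every oocyte and every morula, while oocytes and morulae overlap with VCD and, after median-of-ratios scaling of all libraries, also with PBS. Prkacb rose in morulae by a log2 fold change of 0.83 with VCD (SE 0.15, adjusted p = 0.000343) and 0.85 with PBS (SE 0.19, adjusted p = 0.00155), to a mean level 2.94- and 3.26-fold that of 2-cell embryos. Of the summed FPKM of both catalytic genes, Prkaca made up 87.97% to 90.8% in VCD oocytes and 90.7% to 92.7% in PBS oocytes, and 93.2% to 97.1% in VCD and 94.8% to 96.2% in PBS 2-cell embryos. In morulae its share was 10.1% to 37.1% with VCD and 14.02% to 45.3% with PBS, less than that of Prkacb in all 8. The sum of both was also lower in morulae, at 2.67 ± 0.39 FPKM with VCD and 2.78 ± 0.92 FPKM with PBS, beside 15.01 ± 4.49 FPKM in VCD and 14.3 ± 2.69 FPKM in PBS 2-cell embryos (SD, n = 4 each).

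**Figure D2:**
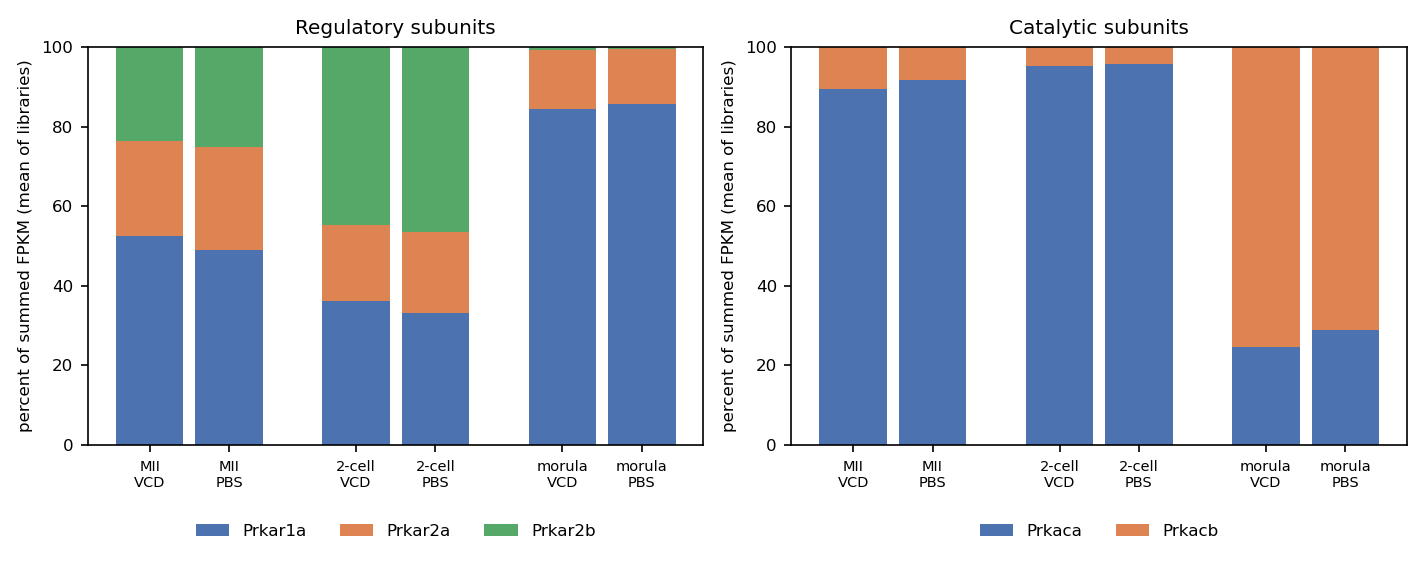
Share of each PKA subunit gene in a summed FPKM, in percent, as the mean over the libraries of each of the 6 groups. The regulatory sum (left) is of Prkar1a, Prkar2a and Prkar2b, and the catalytic sum (right) of Prkaca and Prkacb, without Prkx. Prkaca takes most of the catalytic sum in oocytes and 2-cell embryos, Prkar2b has its largest share in 2-cell embryos, and in morulae Prkar1a and Prkacb take most of each sum under either agent.

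The regulatory subunits bind the catalytic ones until cAMP frees them, and type II subunits such as PRKAR2B are the classical partners of A-kinase anchors. Prkar2b (chromosome 12, 31958476 to 32061296, minus strand) showed the steepest decline of the 8 genes. It was at 25.5, 19.7, 23.8, 16.9 and 21.9 FPKM in MII oocytes with VCD, against 20.3, 19.9, 22.9 and 25.3 FPKM with PBS. In 2-cell embryos 30.01, 28.3, 43.1 and 24.9 FPKM were found with VCD, against 28.3, 31.6, 31.7 and 26.99 FPKM with PBS. Morulae retained 0.0317, 0.237, 0.179 and 0.400 FPKM with VCD, against 0.170, 0.0159, 0.145 and 0.240 FPKM with PBS. The morula values rest on 2 to 23 fragments a library with VCD and 1 to 16 with PBS. Mean levels were 149-fold lower in VCD morulae and 208-fold lower in PBS morulae than in 2-cell embryos, a log2 fold change of -4.73 (SE 0.20, adjusted p = 4.86e-09) and -4.75 (SE 0.13, adjusted p = 1.98e-10). Between oocytes and 2-cell embryos the PBS libraries do not overlap, with the embryos higher, but the VCD libraries do, and after median-of-ratios scaling both overlap.

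Prkar1a (chromosome 11, 109649405 to 109669656, plus strand), the type I subunit, had the highest mean level of the 8 in oocytes and in morulae. It had 49.6, 44.8, 43.6, 53.4 and 48.7 FPKM in MII oocytes with VCD, against 43.3, 43.4, 46.6 and 39.5 FPKM with PBS. 2-cell embryos had 28.0001, 21.9, 22.3 and 29.5 FPKM with VCD, against 22.8, 20.3, 20.4 and 21.02 FPKM with PBS. The morulae had 19.2, 38.6, 32.8 and 24.4 FPKM with VCD, against 30.3, 23.2, 35.1 and 28.6 FPKM with PBS. All oocytes lie above all embryos, and 2-cell embryos and morulae overlap with VCD and, with all 25 libraries scaled by median of ratios, also with PBS. Against 2-cell embryos the log2 fold change of Prkar1a in VCD morulae was 0.13 (SE 0.23, adjusted p = 0.594), and -0.17 under median-of-ratios scaling. In PBS morulae Prkar1a rose by 0.44 (SE 0.14, adjusted p = 0.0135); under that scaling this was 0.09 (limma, adjusted p = 0.554) and no longer passed. Between morulae and 2-cell embryos the mean log2 factors of that scaling differed by 0.31 (VCD) or 0.36 (PBS). Fold changes of genes well above 1 FPKM were lowered by about that much, and those of lower genes need not be. With VCD the 2-cell mean was 25.4 ± 3.89 FPKM, against 21.1 ± 1.13 FPKM with PBS (SD, n = 4 each), a log2 fold change of 0.25 with a 95% interval of -0.04 to 0.53 that did not pass (limma, adjusted p = 0.999). Prkar2a, the other type II subunit, fell as well, at 4.97 ± 1.27 FPKM in VCD morulae against 13.3 ± 3.41 FPKM in VCD 2-cell embryos, and 4.73 ± 0.53 FPKM in PBS morulae against 13.05 ± 0.84 FPKM in PBS 2-cell embryos. Of the summed FPKM of Prkar1a, Prkar2a and Prkar2b, Prkar1a made up 80.6% to 86.6% in VCD morulae and 83.9% to 86.7% in PBS morulae, beside 29.3% to 40.6% in VCD and 31.01% to 34.98% in PBS 2-cell embryos. In oocytes it was 48.8% to 58.97% with VCD and 44.5% to 51.7% with PBS.

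The summed regulatory transcripts of Prkar1a, Prkar2a and Prkar2b exceeded the summed catalytic ones of Prkaca and Prkacb in every library. As a ratio, the mean excess was larger in morulae, where both sums were lower. The ratio of the 2 sums was 6.81 ± 1.26 in VCD oocytes (n = 5) and 6.04 ± 0.29 in PBS oocytes (n = 4), and 5.04 ± 1.73 in VCD and 4.59 ± 0.84 in PBS 2-cell embryos. In morulae it was 13.1 ± 4.80 with VCD and 13.3 ± 4.81 with PBS (SD, n = 4 each). 1 VCD morula, at 7.36, lies within the range of the VCD 2-cell embryos, whose highest was 7.50, whereas all PBS morulae, from 8.16 up, lie above the PBS 2-cell embryos, whose highest was 5.79. These sums add levels per length and say nothing of protein. The related catalytic kinase Prkx is not in the catalytic sum. It averaged 4.88 FPKM in VCD and 5.07 FPKM in PBS morulae, beside catalytic sums of 2.67 and 2.78 FPKM. In oocytes Prkx averaged 3.73 FPKM with VCD and 3.56 FPKM with PBS, beside catalytic sums of 13.75 and 14.6 FPKM. Leaving it out therefore raises the morula ratios more than the oocyte ones. The ratio with Prkx counted in would be lower and was not taken. With it the order of the stages may differ, so these ratios hold for the genes summed only.

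**Figure D3:**
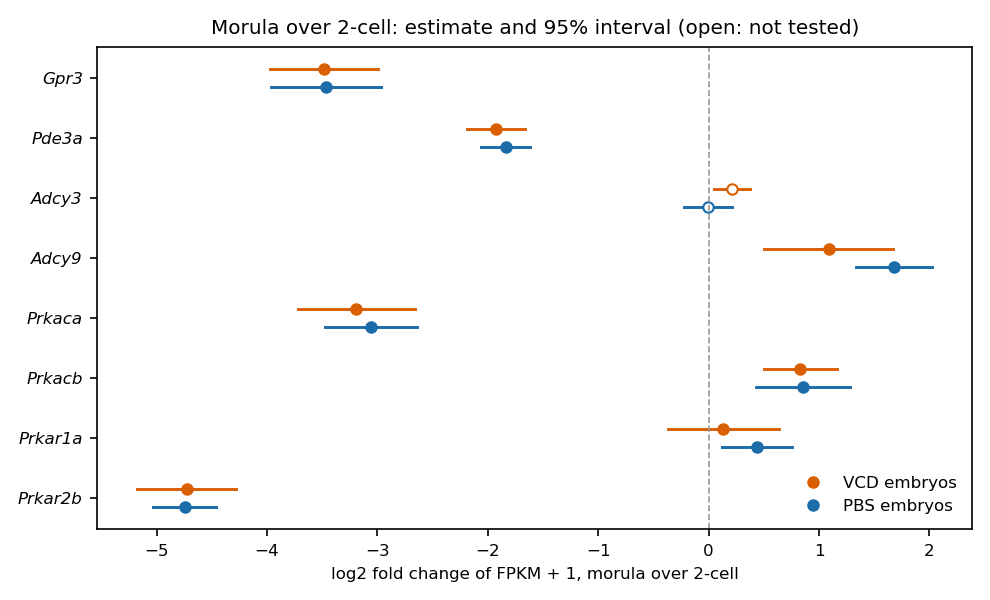
Log2 fold change of FPKM + 1, morula over 2-cell, for each gene, with its 95% interval from limma; orange is VCD embryos (n = 4 against 4), blue PBS embryos (n = 4 against 4), and open points were too low to be tested. The estimates of both agents lie close together for each gene, from -4.75 for Prkar2b to 1.68 for Adcy9, with the widest gap for Adcy9.

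The VCD and PBS stage comparisons use no library in common. For no member did the stage difference pass as differing between the agents: in the interaction 0 of 7 members passed, where 0% of 14144 genes did, none had an unadjusted p below 0.05, and voom called 0. Over all genes of the interaction 502 had an unadjusted p below 0.05, and voom called 0. 3 other measures moved with stage. Genes at 1 FPKM or more numbered 9602 to 10335 in morulae, against 11072 to 11995 in 2-cell embryos. Mitochondrial genes made up 10.03% to 13.3% of the summed FPKM in morulae, against 4.86% to 7.70% in 2-cell embryos. The 16 cumulus and granulosa markers summed to 24.1 to 37.7 FPKM in VCD morulae and 26.02 to 36.04 in PBS morulae, against 10.4 to 13.7 in VCD and 9.98 to 16.1 in PBS 2-cell embryos. In morulae 3 of the 16 averaged 1 FPKM or more, and 4 of 16 did in 2-cell embryos. Nr5a2, which early embryos also express, led in morulae, at a median of 14.0 FPKM beside 2.72 in 2-cell embryos. Hsd17b1 had a median of 11.3 FPKM in morulae (7.57 to 22.5), beside 0 in 2-cell embryos. Kitl was lower in morulae, at a median of 1.45 FPKM beside 3.84. Fshr, Inha, Has2, Ptx3 and Lhcgr were at 0 in both morula groups. The part of these measures in the stage differences was not tested.

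**Figure D4:**
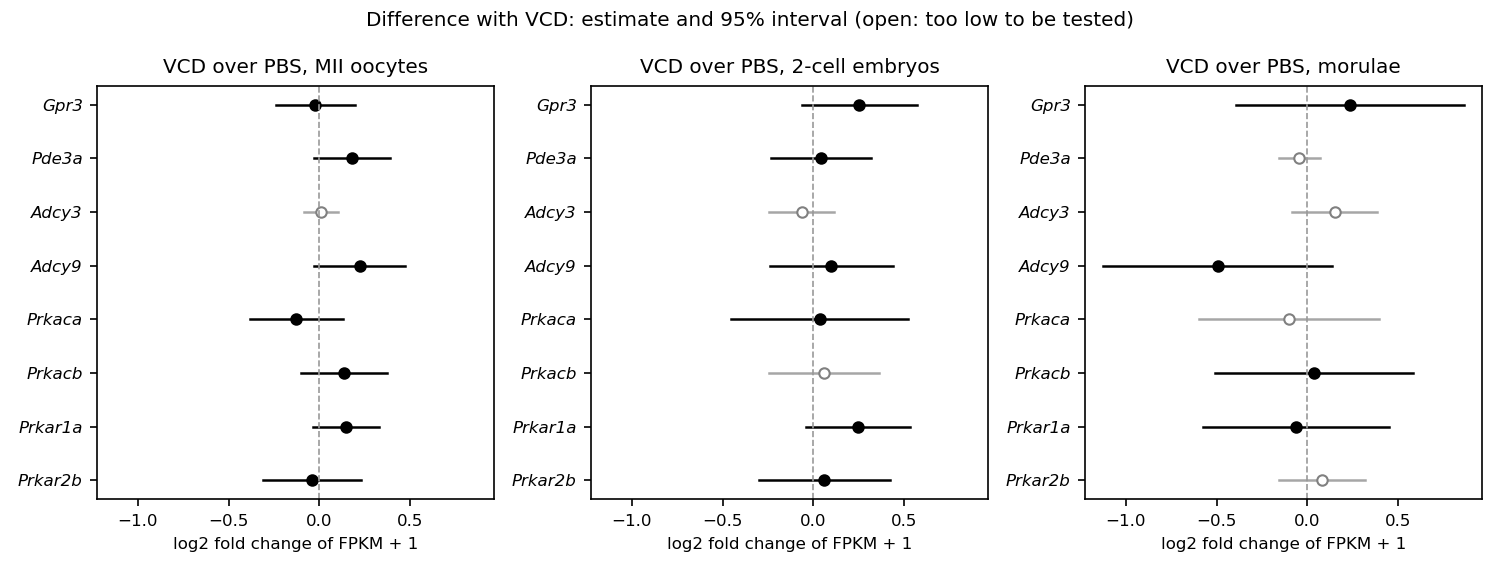
Log2 fold change of FPKM + 1, VCD over PBS, for each gene in MII oocytes (n = 5 against 4), 2-cell embryos and morulae (n = 4 against 4 each), with its 95% interval from limma; grey open points were too low to be tested. All intervals of tested genes include 0, and they are widest in morulae, where that of Adcy9 runs from -1.12 to 0.14.

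In oocytes the 95% intervals of the 7 tested members lay between -0.38 and 0.47 on the log2 scale, and a change of 1 on that scale lies outside each of them. In 2-cell embryos the widest was that of Prkaca, from -0.45 to 0.52, and in morulae that of Adcy9, given above, was the widest and reaches past a change of -1, followed by that of Gpr3, from -0.39 to 0.86. Cumulus and granulosa markers summed to 12.5 to 15.4 FPKM in VCD oocytes and 13.6 to 16.3 in PBS oocytes. Of the 16, 3 averaged 1 FPKM or more with VCD and 2 with PBS, led by Cyp19a1; Foxl2 has no row in the oocyte table and was not counted.

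The rest of the pathway was followed in 96 further genes in 8 lists. Between 2-cell embryos and morulae 34 fell, 20 rose and 6 did not pass of 60 tested with VCD. With PBS 32 fell, 20 rose and 7 did not pass of 59 tested. Over all tested genes 43.9% fell and 41% rose with VCD, and 45% fell and 42.7% rose with PBS. These shares stand beside each of the list counts that follow. The median log2 fold change of the tested list genes was -0.83 with VCD and -0.68 with PBS, beside -0.08 over all genes in each. Genes could enter through 1 stage alone. Pde3b, Akap7, Rapgef4, Popdc2 and Rgs2 stayed under 1 FPKM in every morula, and Impdh1 in every 2-cell library. The lists were also chosen with earlier results known. These medians, and the counts of falls and rises in the lists below, therefore do not measure a shift of the pathway.

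Upstream of PKA, most tested genes fell, where 43.9% of all tested genes did with VCD and 45% with PBS. Many of them could only fall. Rgs2, Adcy8, Pde1b, Pde3b, Pde4d, Pde8b and Pde9a stayed under 1 FPKM in every morula and entered through the 2-cell libraries alone. Of the 4 receptor and G protein genes tested 2 fell with either agent: Rgs2, a regulator that shortens G protein signalling, averaged 0.28 ± 0.11 FPKM in VCD morulae against 50.9 ± 16.8 FPKM in VCD 2-cell embryos, and 0.32 ± 0.17 FPKM in PBS morulae against 49.7 ± 14.4 FPKM in PBS 2-cell embryos. Gnai1, an inhibitory G protein subunit, was 15.2-fold lower in VCD morulae and 11.4-fold lower in PBS morulae. The other 2 did not pass with VCD, and 1 of them rose with PBS. Gnas, the stimulatory subunit itself, was listed at 0.02 to 0.12 FPKM by group mean, but 22% of its exon bases belong to Gm20721 or Nespas on the other strand, so its level is uncertain. Of the phosphodiesterases 6 of 7 tested fell and 1 rose with either agent. On the log2(FPKM + 1) scale Pde3b was the steepest, with a log2 fold change of -3.26 with VCD (SE 0.15, limma, adjusted p = 7.85e-09) and -3.40 with PBS (SE 0.12, adjusted p = 8.16e-10). Pde8a fell by 0.98 with VCD and 1.10 with PBS on that scale. Relative to its 2-cell mean FPKM, Pde4d fell further than Pde3b. It went from 3.01 to 0.0072 FPKM with VCD and from 3.14 to 0.0077 FPKM with PBS. Among the cyclase list 3 of 4 tested fell with VCD and 2 of 3 with PBS, while Cap1, named for binding cyclase in yeast and an actin regulator in mammals, was 29.3-fold higher in VCD morulae and 40.8-fold higher in PBS morulae.

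At PKA itself 3 of the 4 other subunit and inhibitor genes tested fell with VCD, and 4 of 4 with PBS. Over all tested genes 43.9% fell with VCD and 45% with PBS. Prkx, a related catalytic kinase, averaged 4.88 ± 0.95 FPKM in VCD morulae against 9.86 ± 1.95 FPKM in VCD 2-cell embryos. Of 8 A-kinase anchors tested, which tether PKA to places in the cell, 5 fell and 3 rose with either agent. Akap7 was 103-fold lower in VCD morulae and 100.3-fold lower in PBS morulae, Akap10 10.3- and 6.65-fold, and Akap9 14.1- and 14.8-fold.

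Other effectors of cAMP were mixed, with 3 of 8 tested falling, 2 rising and 3 not passing with VCD, and 2 falling, 3 rising and 3 not passing with PBS. Popdc2, a membrane protein that binds cAMP, was listed at 0 in all 4 VCD morulae and averaged 0.03 FPKM in PBS morulae, against 10.3 ± 1.77 FPKM in VCD and 11.95 ± 2.31 FPKM in PBS 2-cell embryos. Rapgef4, the exchange factor EPAC2, was likewise at 0 in all 4 VCD morulae and averaged 0.02 FPKM in PBS morulae, against 8.57 ± 1.04 FPKM in VCD and 8.28 ± 1.18 FPKM in PBS 2-cell embryos. Creb3, a membrane-tethered transcription factor, rose by a log2 fold change of 2.70 with VCD and 3.06 with PBS; 20.8% of its exon bases belong to Tln1 or Gba2.

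The cell cycle genes on which the arrest acts split about as all tested genes did. Of 18 tested 9 fell and 9 rose with VCD, where 43.9% of all tested genes fell and 41% rose. With PBS 8 fell, 7 rose and 3 did not pass, where 45% of all tested genes fell and 42.7% rose. Wee2, the oocyte kinase that keeps CDK1 inactive and a known PKA target, averaged 0.47 ± 0.28 FPKM in VCD morulae against 559 ± 105 FPKM in VCD 2-cell embryos, and 0.97 ± 0.83 FPKM in PBS morulae against 565 ± 60.99 FPKM in PBS 2-cell embryos. Ywhab, a 14-3-3 protein, was 4.18-fold higher in VCD morulae and 5.22-fold higher in PBS morulae, and the phosphatase Cdc14b was 5.62- and 5.29-fold higher.

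Genes of the cyclic GMP arm moved in both directions. Of 7 tested 4 rose and 3 fell with either agent, where 41% of all tested genes rose with VCD and 42.7% with PBS. Gja1, the gap junction protein connexin 43, averaged 49.2 ± 22.1 FPKM in VCD morulae against 1.06 ± 0.50 FPKM in VCD 2-cell embryos, and 54.9 ± 11.9 FPKM in PBS morulae against 1.25 ± 0.36 FPKM in PBS 2-cell embryos. Impdh1, which makes guanine nucleotides, was 54.2-fold higher in VCD morulae and 82.9-fold higher in PBS morulae. Impdh2, with the same role, reached 317 ± 29.6 FPKM in VCD morulae and 275 ± 18.2 FPKM in PBS morulae, but 39.3% of the 50-base words of its transcripts occur in other genes, so its level is uncertain.

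**Figure D5:**
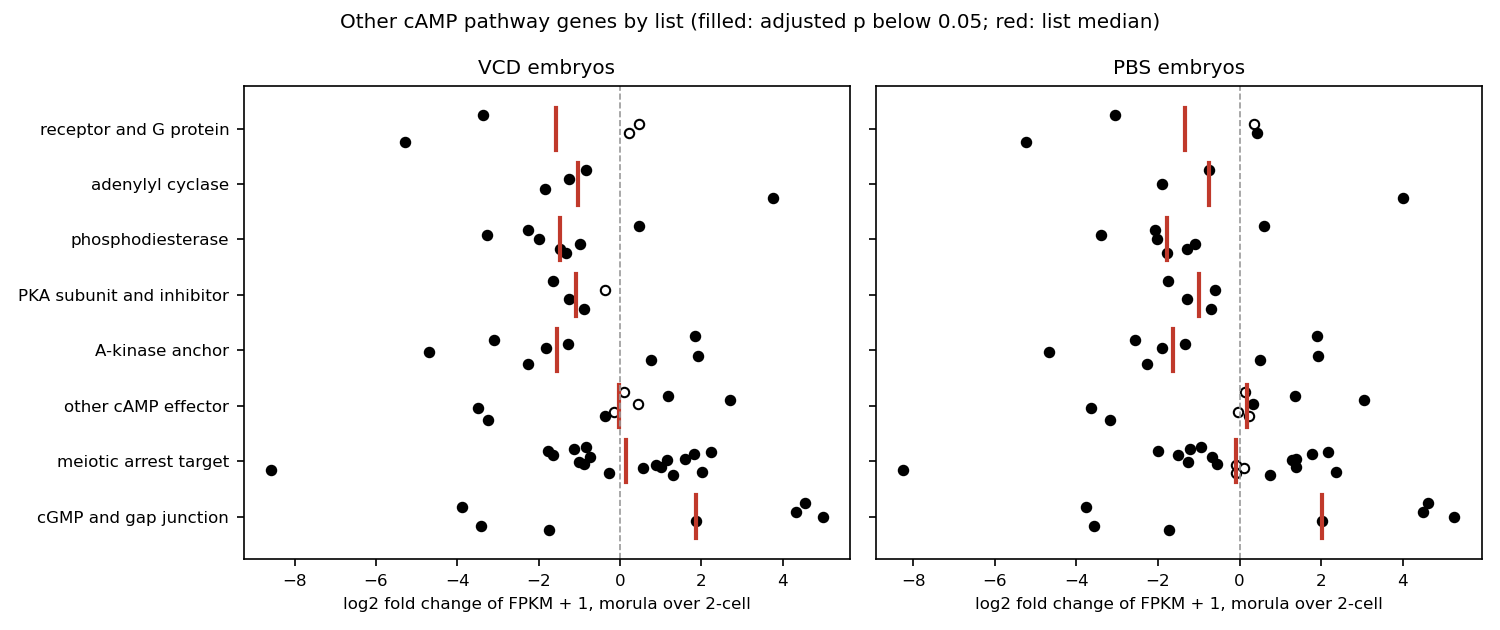
Log2 fold change of FPKM + 1, morula over 2-cell, for each tested gene of the 8 pathway lists (the 8 members left out), in VCD embryos (left) and PBS embryos (right); filled points have an adjusted p below 0.05 and the red bar is the list median. Most phosphodiesterases lie left of 0, and of these Pde1b, Pde3b, Pde4d, Pde8b and Pde9a entered through the 2-cell libraries alone. The lowest point, among the meiotic arrest targets, is Wee2 at -8.57 with VCD and -8.25 with PBS.

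Of these genes 50 were tested between VCD and PBS in oocytes, 58 in 2-cell embryos and 44 in morulae, and 0 passed in each. With limma 1, 3 and 0 of them had an unadjusted p below 0.05 in those stages, in that order, where 2.81%, 3.44% and 3.12% of all genes did. The smallest unadjusted p in oocytes was that of Pkmyt1, a kinase that restrains CDK1, at 39.3 ± 5.27 FPKM with VCD (n = 5), against 31.9 ± 1.61 FPKM with PBS (n = 4; SD), a log2 fold change of 0.28 (SE 0.10; limma, adjusted p = 0.999). In 2-cell embryos it was that of Ppp2r1a, a scaffold of protein phosphatase 2A, at 41.4 ± 7.15 FPKM with VCD, against 30.1 ± 1.88 FPKM with PBS (SD, n = 4 each), a log2 fold change of 0.43 (SE 0.14; limma, adjusted p = 0.999). In morulae Rapgef2, an exchange factor for Rap proteins, had 1.13 ± 0.34 FPKM with VCD, against 1.80 ± 0.26 FPKM with PBS (SD, n = 4 each), a log2 fold change of -0.40 (SE 0.19; limma, adjusted p = 0.99997).

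For each member the 3 genes most like it over all 25 libraries were taken by Pearson's r of log2(FPKM + 1), among 8581 or 8582 genes; with 3 stages in 2 tables this mostly measures a shared stage pattern and is a description. Gpr3 was most like Kcnk18, Fam193a and Rrm2b, each with r = 0.992. Pde3a was most like Kcnq1 (r = 0.997), followed by Cpeb1 and D030018L15Rik (r = 0.996 each). Cpeb1, a regulator of maternal mRNA translation, averaged 206 FPKM in VCD and 209 FPKM in PBS oocytes, 18.3 and 18.8 FPKM in VCD and PBS 2-cell embryos, and 1.80 and 2.14 FPKM in VCD and PBS morulae. Prkar2b was most like Il7 (r = 0.998), then Gm20362 and Gm10280 (r = 0.997 each), and Prkaca was most like Hyls1 and 4933427D06Rik (r = 0.990 each). The highest r was lower for the other 4 members: 0.957 between Prkar1a and Cul4a, 0.934 between Prkacb and Tesk2, 0.932 between Adcy9 and Prep, and 0.771 between Adcy3 and Gm49379.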

How the data were processed

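FPKM per gene was deposited by the authors in 2 tables, 1 of the 9 oocyte libraries and 1 of the 16 embryo libraries. The submitters' processing notes name TopHat2 2.0.12 and Bowtie2 2.2.3; they list the chicken build galGal4, yet the identifiers are mouse Ensembl ones, and the counting tool is not given in the sources used here. FPKM keeps neither counts nor a correction for a few very abundant genes. FPKM times exon length (GENCODE M21, GRCm38) gave whole fragments, within 0.01, for 90.6% to 93.4% of values under 200 fragments; these served for depth and 1 alternative. Amplified cDNA without molecular identifiers gives no independent molecules.

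Differences were tested with limma 3.58.1 in R 4.3.3 on log2(FPKM + 1) with a variance trend, for genes that reached 1 FPKM in 4 libraries compared, with Benjamini-Hochberg adjustment over all of them. VCD was compared with PBS per stage, morulae with 2-cell embryos per agent, and both in an interaction. Alternatives changed the pseudocount, filter, scaling, weights, trend or test, added a replicate block, or left out a library. The test was tried on simulated data first. Oocyte and embryo tables were never tested against each other.

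The members, the 96 pathway genes in 8 lists and the markers were chosen with earlier results of these data known. Named besides the members are, per list and stage comparison, up to 3 genes of largest fold change that passed, did not overlap and averaged 5 FPKM or more; per VCD comparison, the pathway genes of smallest p; and the 3 genes most like each member. Gnas, Prkar2a and Pde3b are also given for their roles, and some genes for the limit they set on a count or rank.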

Additional observations from a re-analysis of the deposited data

Results flagged for a closer look

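In 3 of the 48 sets of 1 gene in 1 group, a single library stood apart from the others by Dixon's criterion, which chance meets in about 1 of 20 sets. Gpr3 had 34.0 FPKM in the highest VCD 2-cell library, while the other 3 lay between 30.4 and 31.0 FPKM. Adcy9 had 2.34 FPKM in the lowest PBS oocyte library, while the other 3 lay between 3.10 and 3.18 FPKM. Prkacb had 3.51 FPKM in the highest PBS morula library, while the other 3 lay between 1.46 and 1.63 FPKM.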

How the results depend on the processing

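Every one of the 847 alternative values of the other named genes kept its direction and its side of the threshold, and so did 646 of the 691 of the members. The member counts, 0, 0 and 0 for VCD in oocytes, 2-cell embryos and morulae, 6 and 7 for morula against 2-cell embryos with VCD and PBS, and 0 in the interaction, changed under 3 alternatives. A minimum of 10 FPKM left 3 members to be tested, of which 2 passed with VCD and 3 with PBS. Without a filter Adcy3 passed too with VCD (limma, adjusted p = 0.0416), which made 7 of 8. Under median-of-ratios scaling Prkar1a lost its call with PBS, which made 6 of 7. Scaling all 25 libraries together moved 23 of 48 group levels by more than their SD, with factors of 0.71 to 0.85 in oocytes and 1.04 to 1.30 in embryos. Over all genes, the minimum of 10 FPKM left 4638 calls of 5158 genes with VCD and 4832 of 5235 with PBS in the stage comparisons, no filter gave 14660 of 31446 with VCD and 15723 of 31817 with PBS, and elsewhere calls stayed between 0 and 2 genes.

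Reversals touched only estimates that had not passed; the cause was not tested. Array weights gave 0.0032 for Gpr3 in oocytes, -0.00691 for Pde3a and -0.12 for Prkaca in 2-cell embryos, and 0.17 for Gpr3 and 0.10 for Prkacb in the interaction. For the interaction of Gpr3 a pseudocount of 0.1 gave 0.11 and voom 0.14. Median-of-ratios scaling gave -0.17 for Prkar1a between VCD morulae and VCD 2-cell embryos, and leaving out 1 library gave -0.022 to 0.30. Leaving out 1 library also gave -0.073 to 0.035 for Gpr3 and -0.10 to 0.038 for Prkar2b in oocytes, -0.12 to 0.20 for Prkaca and -0.10 to 0.16 for Prkar2b in 2-cell embryos, and -0.045 to 0.25 for Prkacb and -0.21 to 0.11 for Prkar1a in morulae. In the interaction it gave -0.22 to 0.17 for Gpr3, -0.30 to 0.025 for Prkaca, -0.10 to 0.19 for Prkacb and -0.080 to 0.18 for Prkar2b.

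Replicate numbers gave no consistent pairing of the samples: deviations of same-numbered samples had correlations of -0.33 to 0.38, the highest in morulae. Whether samples are paired in some other order cannot be told from this. With the replicate number as a block the member counts were again 0, 0, 0, 6, 7 and 0, and the counts over all genes were 0 in oocytes, 1 in 2-cell embryos and 1 in morulae. At most 5 of 8 samples in a comparison correlated best with their own number. Depth limits Prkar2b and Adcy3 most: 1 fragment in a gene of 1 kb was worth 0.0476 to 0.0663 FPKM.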
